A study of Mus musculus with 2 samples.

Results

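The hypoxia-inducible factors and the enzymes that sense oxygen for them were examined in sorted cells of the mouse aorta that the labels name as blood progenitors. The group holds 10 genes chosen by symbol, and all 10 were found among the 24062 genes counted. They are the alpha subunit genes Hif1a, Epas1 and Hif3a, the beta subunit genes Arnt and Arnt2, the ubiquitin ligase gene Vhl, the prolyl hydroxylase genes Egln1, Egln2 and Egln3, and the asparaginyl hydroxylase gene Hif1an. The cells were sorted from the aorta of C57BL6 embryos at embryonic day 11, as CD31+ KITint cells that carry Gata2Venus, a transgene whose fluorescence reports Gata2, a transcription factor of blood stem cells. CD31 is an endothelial and early blood surface protein, and KITint means an intermediate level of the KIT receptor. Each group, Gata2Venus-negative and Gata2Venus-positive, is 1 RNA library, with 10135400 and 9715131 counts assigned to genes. The series is about Gata2-independent progenitors and sets cells without the reporter beside cells with it. With 1 library per group there is no replicate check and no p-value, so the reporter, the library and any difference in handling cannot be told apart. The intervals below are exact 95% intervals that cover counting error only, and reads copied by PCR are not separate molecules, so they can be too narrow.

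As background, hypoxia-inducible factors are pairs of an oxygen-regulated alpha subunit and a stable beta subunit. When oxygen is present, prolyl hydroxylases mark the alpha subunit, the VHL protein binds the marked form, and the alpha subunit is degraded, while the asparaginyl hydroxylase blocks its contact with coactivators. When oxygen is scarce the alpha subunit persists and the pair switches on genes of glycolysis, blood vessel growth and red cell production. Much of this control acts on protein, which RNA counts do not show. Epas1 is known for its abundance in endothelium, the tissue from which blood stem cells emerge in the aorta.

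Of the 10 genes, Arnt2 was higher in the Gata2Venus-negative library and Egln3 was higher in the Gata2Venus-positive library, and the other 8 differed by less than the rule of size asks. Levels are given in CPM, a gene's counts relative to the library's total, after scaling with TMM, a method that adjusts library sizes so that most genes match. A gene met the level minimum when its higher value reached 10 CPM and 50 counts, and it was past the rule when the interval of its ratio also lay wholly beyond 2-fold. All 10 met the level minimum. Among the 10381 genes that met it, 15.2% were past the rule with higher values in the Venus-negative library and 14.9% with higher values in the Venus-positive library, or 30.1% in all. A total of 2 of 10 is not above that background. The log2 ratio, always Venus-negative over Venus-positive, had a median of 0.28 over the 10 genes and -0.0023 over all genes that met the minimum. The ratio was above 0 for 7 of the 10 and for 49.9% of all such genes.

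The promoter windows of the genes that part company within their families are shown here, because Egln3 and Arnt2 were past the rule while their closest relatives were not. Each is the stretch of 250 bases before the RefSeq transcription start (GRCm38.p6, the mm10 build), read 5′ to 3′ on the gene's strand. Capitals mark ACGTG and GCGTG, the cores of the element that hypoxia-inducible factors bind, searched on both strands, so that a match on the other strand reads CACGT or CACGC and the palindrome CACGTG counts on each strand. The windows lie at chr12:54203875-54204124 on the minus strand for Egln3, at chr8:124949255-124949504 on the minus strand for Egln1, at chr7:27166803-27167052 on the minus strand for the upstream start of Egln2, at chr7:84410039-84410288 on the minus strand for Arnt2 and at chr3:95434140-95434389 on the plus strand for Arnt.
Egln3: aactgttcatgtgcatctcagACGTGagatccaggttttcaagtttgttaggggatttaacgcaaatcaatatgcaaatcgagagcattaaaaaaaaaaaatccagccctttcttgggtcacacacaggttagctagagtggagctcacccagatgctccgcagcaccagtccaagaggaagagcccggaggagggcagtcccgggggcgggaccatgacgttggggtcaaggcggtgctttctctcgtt
Egln1: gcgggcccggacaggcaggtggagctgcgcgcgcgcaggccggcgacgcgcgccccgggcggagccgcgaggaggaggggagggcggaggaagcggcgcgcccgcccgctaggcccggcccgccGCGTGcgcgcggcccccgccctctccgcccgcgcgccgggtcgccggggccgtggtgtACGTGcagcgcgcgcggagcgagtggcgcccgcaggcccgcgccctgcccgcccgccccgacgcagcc
Egln2: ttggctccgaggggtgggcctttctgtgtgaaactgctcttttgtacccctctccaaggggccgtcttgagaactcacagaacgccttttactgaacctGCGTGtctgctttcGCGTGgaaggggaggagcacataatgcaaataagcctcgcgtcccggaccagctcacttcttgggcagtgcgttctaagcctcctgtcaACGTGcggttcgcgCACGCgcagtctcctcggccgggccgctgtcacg
Arnt2: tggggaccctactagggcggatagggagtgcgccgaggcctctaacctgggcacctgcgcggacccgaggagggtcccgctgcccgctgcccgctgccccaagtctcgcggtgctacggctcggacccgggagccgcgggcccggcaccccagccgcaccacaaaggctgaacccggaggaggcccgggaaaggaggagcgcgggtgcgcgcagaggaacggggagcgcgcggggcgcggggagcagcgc
Arnt: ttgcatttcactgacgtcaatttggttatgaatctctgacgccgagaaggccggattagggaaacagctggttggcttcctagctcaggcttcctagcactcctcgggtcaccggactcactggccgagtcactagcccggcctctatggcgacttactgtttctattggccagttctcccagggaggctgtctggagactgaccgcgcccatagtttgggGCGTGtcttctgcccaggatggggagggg
The Egln3 window held 1 match, ACGTG at 229 bases before the start. The stretch directly after this RefSeq start was not found whole in any Egln3 transcript of the GENCODE annotation, and the same held for Hif1a. The distance therefore holds for the RefSeq start only. Egln1 held 2 matches, the upstream window of Egln2 held 4, Arnt held 1 and Arnt2 held 0. Windows were found for 9 of the 10 genes, Epas1 being the one without, and 6 of the 9 held at least 1 match (Hif1a, Hif3a, Arnt, Egln1, Egln2 and Egln3, but not Arnt2, Vhl or Hif1an). Counted by window, since Egln2 has 2, 7 of 10 held a match. Among all 32851 promoter windows of this length, 38.6% held a match, 16.6% for ACGTG and 28.2% for GCGTG. A match describes letters in a window, not a bound site.

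The alpha subunit genes set the scale of the pathway. Hif1a (chromosome 12, 73901375 to 73947530, mm10), whose product is the alpha subunit of most cell types, was counted 4656 times in the Venus-negative and 3204 times in the Venus-positive library. Its level was 447 CPM (interval 434 to 460) and 339 CPM (interval 327 to 351), a ratio of 1.32-fold (log2 ratio 0.40, interval 0.34 to 0.47) that is not past the rule. The intervals of its level in the 2 libraries do not overlap, but the gap is far from 2-fold. In bulk RNA of sorted cells, fewer cells of a type and less RNA per cell cannot be told apart, here or for any gene below.

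Epas1 (chromosome 17, 86753700 to 86833410), which encodes HIF-2 alpha, had 638 counts in the Venus-negative and 801 in the Venus-positive library. That gave 61.3 CPM (interval 56.6 to 66.2) and 84.7 CPM (interval 78.9 to 90.8), with a log2 ratio of -0.47 (interval -0.62 to -0.31). Its ratio lay on the other side of 0 from that of Hif1a. Hif3a (chromosome 7, 17031507 to 17062427) encodes an alpha subunit with splice forms that can hold the pathway back, and counts per gene do not separate those forms. It had 182 and 238 counts, at 17.5 CPM and 25.2 CPM (log2 ratio -0.53, interval -0.81 to -0.24). Neither gene was past the rule, and each had its higher value in the Venus-positive library.

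The balance between alpha subunits therefore differed between the libraries by more than counting error. Hif1a made up 87.9% (interval 87.0 to 88.8) of the counts of Hif1a and Epas1 together in the Venus-negative library and 80.0% (interval 78.7 to 81.2) in the Venus-positive library. With Hif3a included, Epas1 held 11.7% (interval 10.8 to 12.5) of alpha subunit counts in the Venus-negative and 18.9% (interval 17.7 to 20.1) in the Venus-positive library, and Hif3a held 3.32% and 5.61%. Hif1a was thus the main alpha subunit transcript in each library. Summed over the 3 genes, alpha subunits stood at 526 CPM and 449 CPM (log2 ratio 0.23, interval 0.17 to 0.29).

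**Figure D1:**
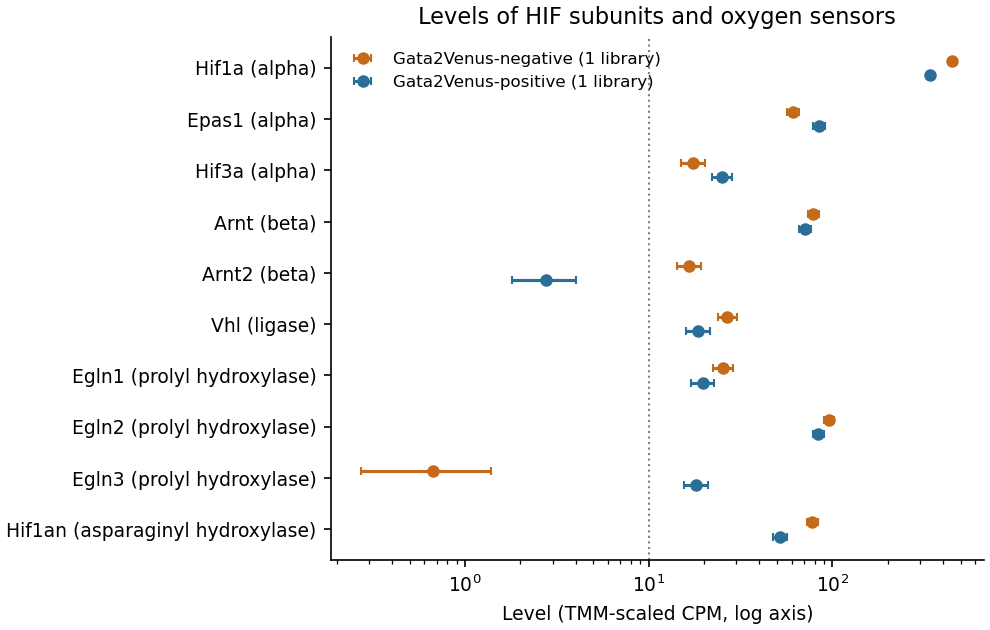
Level of each gene in the Gata2Venus-negative and Gata2Venus-positive library, in TMM-scaled CPM on a log axis, with exact 95% Poisson intervals (counting error, 1 library per group) and a dotted line at 10 CPM. Arnt2 in the Venus-positive library (2.75 CPM) and Egln3 in the Venus-negative library (0.672 CPM) are the points below the dotted line.

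The beta subunits were led by Arnt, and Arnt2 was a small partner seen mostly in the Venus-negative library. Arnt (chromosome 3, 95434388 to 95497240), the shared partner of alpha subunits and of the dioxin receptor, had 818 and 675 counts, at 78.6 CPM in the Venus-negative and 71.4 CPM in the Venus-positive library (log2 ratio 0.14, interval -0.01 to 0.29). Its interval includes equal levels. Arnt2 (chromosome 7, 84246278 to 84410176), a related partner best known from neural and kidney development, had 173 counts in the Venus-negative and 26 in the Venus-positive library. It stood at 16.6 CPM (interval 14.2 to 19.3) and 2.75 CPM (interval 1.80 to 4.03) and was 6.04-fold higher in the Venus-negative library (log2 ratio 2.60, interval 1.995 to 3.25). Arnt2 counts made up 17.5% (interval 15.1 to 19.97) of the beta subunit counts in the Venus-negative library and 3.71% (interval 2.44 to 5.39) in the Venus-positive library. The share intervals do not overlap, and Arnt kept the larger share in each library.

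Large ratios were common at the level of Arnt2 and Egln3. Both had a mean under 10 CPM over the libraries and met the level minimum only through the library where they were higher. Of the 908 genes that met it with a mean under 10 CPM, 83.3% were past the rule, 68.9% had a ratio at least as large as that of Arnt2 in either direction and 56.9% one at least as large as that of Egln3. Over all 10381 genes those shares were 13.1% and 8.54%. The other 8 genes had means above 10 CPM, where the share past the rule was 35.7% for means of 10 to 50 CPM, 16.5% for 50 to 200 CPM and 5.37% above 200 CPM.

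**Figure D2:**
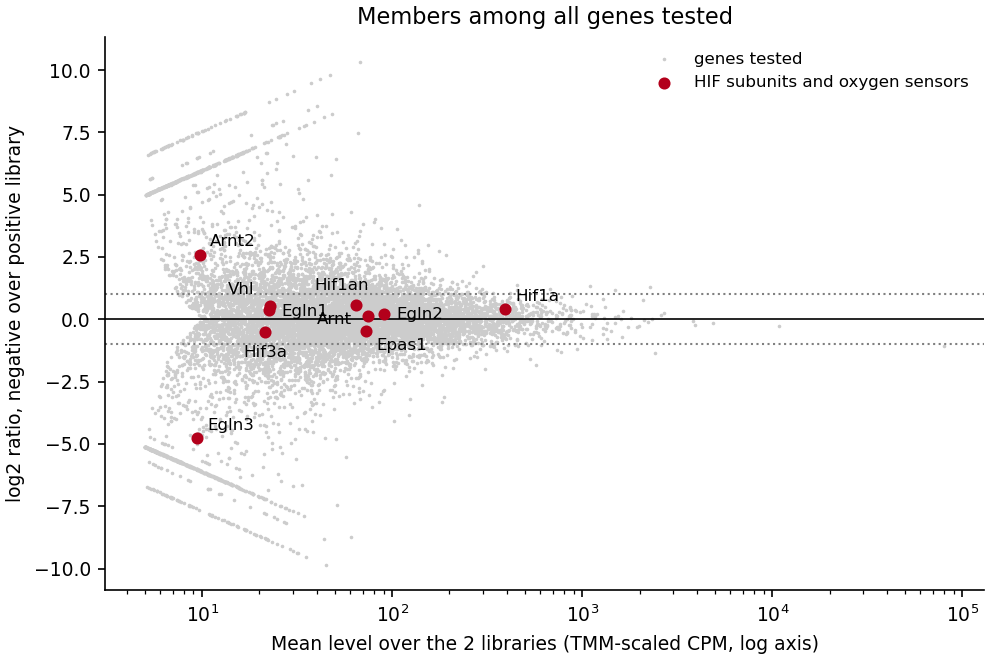
Log2 ratio of negative over positive library against the mean level (TMM-scaled CPM, log axis) for the 10381 genes that met the level minimum (grey) and for the 10 hypoxia pathway genes (red), with 0 counts drawn as 3 counts and dotted lines at 2-fold. Arnt2 (log2 ratio 2.60) and Egln3 (-4.76) lie at the low-level end, where the grey points spread widest, and the other 8 lie between the dotted lines.

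The prolyl hydroxylases were unequal in level, and their makeup differed between the libraries through Egln3. Egln3 (chromosome 12, 54178981 to 54203860) encodes the hydroxylase that is itself strongly induced by hypoxia-inducible factors in many cells. It had 7 counts in the Venus-negative and 172 in the Venus-positive library, which put it at 0.672 CPM (interval 0.270 to 1.39) against 18.2 CPM (interval 15.6 to 21.1). Egln3 was thus 27.0-fold lower in the Venus-negative library (log2 ratio -4.76, interval -6.09 to -3.68). Transcripts of Egln3 were detected in the Venus-negative library, above the 0.288 CPM that 3 counts amount to there, and the lower bound of its interval lies under that value.

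Egln1 (chromosome 8, 124908587 to 124949324) encodes PHD2, the hydroxylase that limits HIF-1 alpha in most tissues. It had 265 and 186 counts, at 25.5 CPM (interval 22.5 to 28.7) and 19.7 CPM (interval 16.9 to 22.7), with a log2 ratio of 0.37 (interval 0.10 to 0.65). Egln2 (chromosome 7, 27158658 to 27166802) encodes PHD1 and was the most counted hydroxylase, with 1000 and 794 counts. Its level was 96.0 CPM in the Venus-negative and 84.0 CPM in the Venus-positive library (log2 ratio 0.19, interval 0.06 to 0.33). Neither was past the rule, and each had its higher value in the Venus-negative library, the other direction from Egln3.

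Summed over the 3 prolyl hydroxylase genes, the libraries held 1272 and 1152 counts, or 122.2 CPM and 121.8 CPM. The log2 ratio of that sum was 0.0044 (interval -0.11 to 0.12), so an overall difference in either direction larger than that interval is not seen in these libraries. Within the sum, Egln3 took 0.550% (interval 0.222 to 1.13) in the Venus-negative library and 14.9% (interval 12.9 to 17.1) in the Venus-positive library. Egln2 took 78.6% (interval 76.3 to 80.8) and 68.9% (interval 66.2 to 71.6), and Egln1 took 20.8% (interval 18.6 to 23.2) and 16.1% (interval 14.1 to 18.4). Egln2 was the main prolyl hydroxylase transcript in each library.

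**Figure D3:**
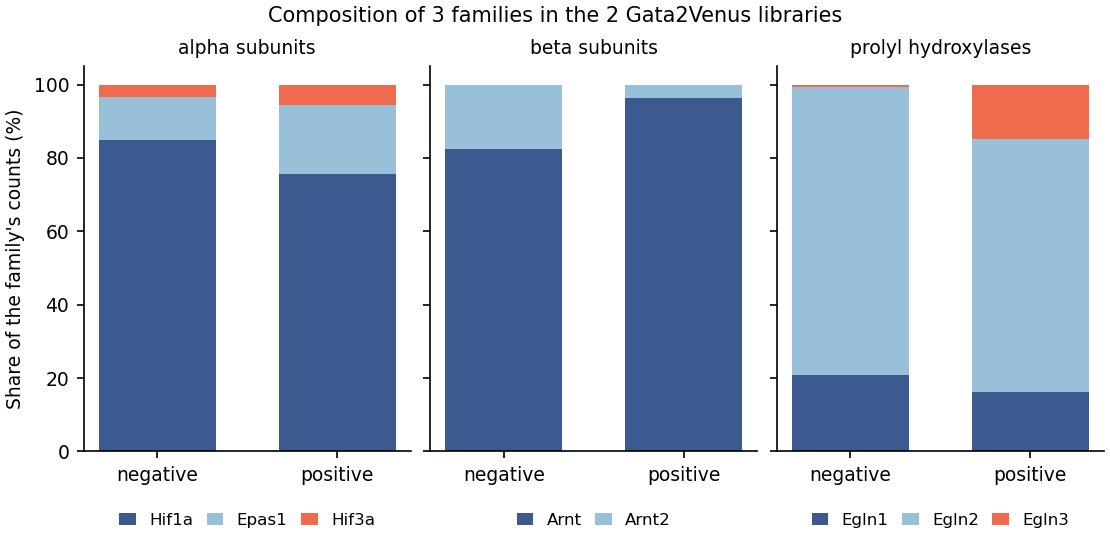
Share of each family's counts (percent, bars add up to 100) taken by each alpha subunit, beta subunit and prolyl hydroxylase gene in the 1 negative and the 1 positive library. Egln3 takes 0.550% of prolyl hydroxylase counts in the Venus-negative and 14.9% in the Venus-positive library, Arnt2 takes 17.5% and 3.71% of beta subunit counts, and Epas1 takes 11.7% and 18.9% of alpha subunit counts.

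The asparaginyl hydroxylase and the ligase had their higher values in the Venus-negative library without passing the rule. Hif1an (chromosome 19, 44562850 to 44576274), whose product FIH keeps alpha subunits from their coactivators, had 810 and 489 counts, at 77.8 CPM (interval 72.5 to 83.3) and 51.7 CPM (interval 47.2 to 56.5). Its ratio of 1.505-fold (log2 ratio 0.59, interval 0.43 to 0.75) was the largest of the 8 genes not past the rule. Vhl (chromosome 6, 113623959 to 113631633), the substrate-binding part of the ligase, had 279 and 176 counts, at 26.8 CPM (interval 23.7 to 30.1) and 18.6 CPM (interval 16.0 to 21.6). Its log2 ratio was 0.53 (interval 0.25 to 0.81). With Hif1a, Egln1 and Egln2, these are genes whose interval for counting error lies above 0 and within 2-fold. With a coefficient of variation of 0.4 assumed between libraries, the interval of each includes 0 (for Hif1an -0.96 to 2.14).

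**Figure D4:**
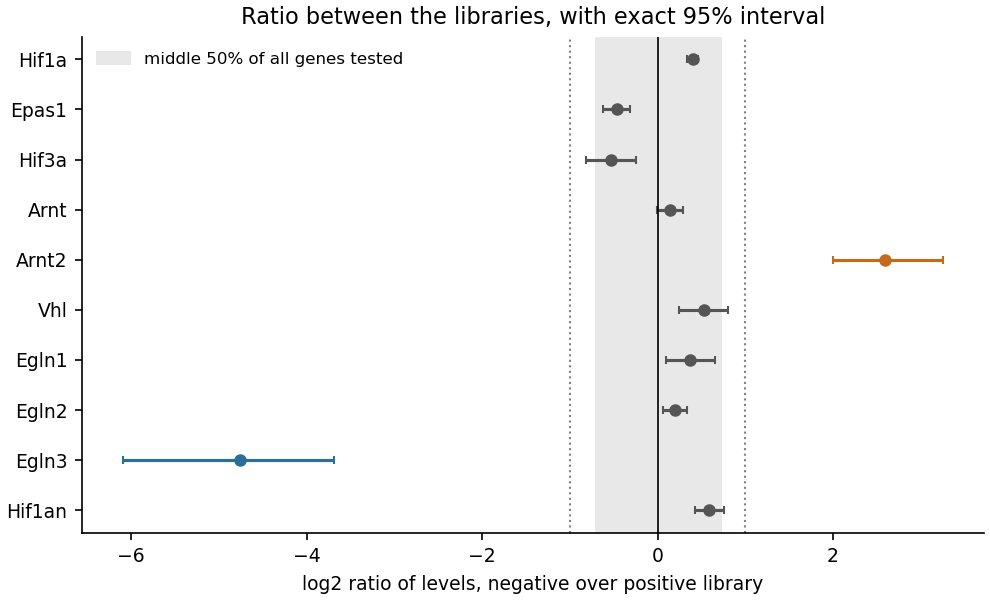
Log2 ratio of the level in the Venus-negative over the Venus-positive library for each of the 10 genes, with exact 95% intervals for counting error, dotted lines at 2-fold and a grey band over the middle 50% of all genes that met the level minimum (-0.70 to 0.73). Arnt2 and Egln3 lie outside the band in opposite directions, and the point estimates of the other 8 genes lie inside it.

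Levels between genes were compared per kilobase of exon, using the merged exons of GENCODE vM21. In the Venus-negative library Hif1a came first at 75.8 CPM per kilobase and Egln2 followed at 34.3. Then came Hif1an at 11.8, Epas1 at 11.0, Arnt at 9.81, Vhl at 8.94 and Egln1 at 7.08 CPM per kilobase, and from Hif1an to Egln1 the interval of each overlapped that of the next. Hif3a at 2.61 and Arnt2 at 2.16 CPM per kilobase overlapped as well, and Egln3 was last at 0.253. In the Venus-positive library the order began with Hif1a at 57.5 and Egln2 at 30.0 CPM per kilobase, and Epas1 came next at 15.2, clear of its neighbours. Arnt at 8.91, Hif1an at 7.83, Egln3 at 6.83, Vhl at 6.21 and Egln1 at 5.47 CPM per kilobase followed, each overlapping the next, and Hif3a at 3.75 and Arnt2 at 0.358 were the last. Egln3 thus stood among the middle genes in the Venus-positive library and at the bottom in the Venus-negative library. Among all genes with at least 1 count, Hif1a was at percentile 95.2 of level per kilobase in the Venus-negative and 92.6 in the Venus-positive library, while Egln3 was at 6.87 and 51.5. Alpha subunits exceeded beta subunits 7.47-fold per kilobase in the Venus-negative and 8.24-fold in the Venus-positive library, and 5.53-fold and 6.05-fold on counts. The order and the per-kilobase ratio of alpha to beta subunits depend on the exon models for Arnt. With the length of its longest transcript Arnt stood at 18.2 and 16.5 CPM per kilobase. On that measure it lay above Epas1, at 11.1 and 15.4 CPM per kilobase, in each library.

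Annotated neighbours limit a few of these counts, since use of strand in counting is not given in the sources used here. The antisense gene Gm15283 covers 330 exonic bases of Hif1a (5.60% of its exonic length), Gm49321 covers 148, Gm30873 covers 214 of Arnt2 (2.78%) and Cyp2t4 covers 11 of Egln2. No exon of another annotated gene overlaps those of Epas1, Hif3a, Arnt, Vhl, Egln1, Egln3 or Hif1an.

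The sort and the labelled cell type were checked on their own markers. Gata2 had 141 counts in the Venus-negative and 664 in the Venus-positive library (13.5 and 70.2 CPM), the direction the labels give. Kit, the receptor gated at an intermediate level in each group, was past the rule and higher in the Venus-negative library, with 2072 and 574 counts, which is 199 and 60.7 CPM (log2 ratio 1.71, interval 1.58 to 1.85), so its RNA was not matched between the groups. Pecam1, the CD31 gene, did not pass the rule, at 537 and 489 CPM. Of 9 blood progenitor markers Gfi1 and Spn were at 0 counts in each library and Gfi1b and Myb at 0 in the Venus-negative library. Runx1, required for blood to emerge from endothelium, had 21 and 303 counts and Ptprc, the pan-blood marker CD45, 194 and 498. Itga2b, Tal1 and Lyl1 had 478, 206 and 173 counts in the Venus-negative library. These markers thus bear out the progenitor label only in part for the Venus-negative library. Other cells' markers differed between the groups as well. Higher in the counts below means past the rule. Of all genes that met the minimum, 15.2% were past it and higher in the Venus-negative and 14.9% in the Venus-positive library. Over both directions the share was 83.3% for means under 10 CPM and 35.7% for 10 to 50 CPM, where several of these markers lie. Endothelial markers were higher in the Venus-positive library in 7 of 10 genes (summed level 2387 and 4388 CPM, none at 0), macrophage markers in 4 of 6 (122 and 599.6 CPM, Timd4 at 0 in the Venus-negative library) and megakaryocyte markers in 4 of 6 (85.9 and 355 CPM, Gp5 and Gp1bb at 0 in the Venus-negative library). Of the 6 blood progenitor markers that met the level minimum 4 were higher in the Venus-positive library (103 and 333 CPM). Mesenchymal markers were higher in the Venus-negative library in 6 of 8 genes (7062 and 3979 CPM, Twist1 at 0 in the Venus-positive library), and 2 of 4 epithelial markers were higher there too (383 and 266 CPM). Of 4 erythroid markers that met the minimum 1 was higher in the Venus-positive library, and Gata1, Klf1 and Epor were at 0 in the Venus-negative library. The 3 others were embryonic globin genes with their higher values in the Venus-negative library and not past the rule (log2 ratios 0.89 for Hbb-bh1, 0.73 for Hbb-y and 1.18 for Hba-x), and the list's summed level was 325 and 231 CPM, with a median log2 ratio of 0.81. Of 7 genes of the response to cell dissociation 0 were past the rule, and for the sympathetic list this was 0 of 2, with Th and Sox10 at 0 in each library. The part of these cell types in the values of Arnt2, Egln3 and the alpha subunits was not tested.

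The machinery around the hypoxia-inducible factors was described with lists of other pathway genes. Of 108 such genes 83 met the level minimum. Of these, 9 were higher in the Venus-negative library, 8 in the Venus-positive library and 66 were not past the rule. Thus 20.5% were past it, against 30.1% of all genes. The share of all genes past the rule fell with level, from 35.7% for means of 10 to 50 CPM to 16.5% for 50 to 200 CPM and 5.37% above 200 CPM. The 30.1% is therefore not matched in level to the lists below. The median log2 ratio of the 83 was -0.10. A split of at most 3 counts in 1 library against at least 100 in the other was common. It was seen in 774 of the 10381 genes that met the minimum. Cited4, Ahrr, Bhlhe40, Insig2 and Pdgfb, given below, are genes of that kind. The VHL partners were not past the rule in 4 of 4 cases. Their means were between 50 and 200 CPM, where 16.5% of all genes were past it. The elongin genes Tceb2 and Tceb1 had log2 ratios of -0.13 and -0.48, the ring protein gene Rbx1 -0.40, and the scaffold gene Cul2 1.09 (interval 0.97 to 1.21), at 183 and 86.1 CPM. Cul2 came closest to passing, with an interval that reaches just under 2-fold.

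Among coactivators and their competitors, 1 of 5 genes that met the minimum was past the rule (20%, against 30.1% of all genes). Cited4, of the family that competes with alpha subunits for the coactivators CBP and p300, had 1 count in the Venus-negative and 240 in the Venus-positive library (log2 ratio -8.05, interval -13.36 to -5.55). The coactivator genes Crebbp (33.3 and 49.7 CPM) and Ep300 (18.5 and 28.7 CPM), the competitor Cited2 (12.2 and 26.8 CPM) and Ncoa2 (49.1 and 52.4 CPM) were not past the rule. Cited1 (4 and 25 counts) and Ncoa1 (0 and 32 counts) did not reach the level minimum. The list's median was -0.63.

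Of 12 genes for proteins that stabilise or remove the alpha subunits, 1 was past the rule in each direction (16.7%, against 30.1% of all genes). Siah1b, a ubiquitin ligase gene that acts on prolyl hydroxylases, was higher in the Venus-negative library (81.0 and 22.9 CPM), and Siah1a was higher in the Venus-positive library (8.26 and 22.2 CPM). These are near-identical copies, so the split of reads between them is uncertain. The chaperone gene Hsp90ab1 (log2 ratio -0.14) and the scaffold gene Gnb2l1 (-0.17) were the most abundant and were not past the rule. All 10 genes of 2-oxoglutarate, succinate and fumarate metabolism, whose products feed or inhibit the hydroxylases, met the minimum and 0 were past the rule. Most of the 10 had means above 200 CPM, where only 5.37% of all genes were past the rule. The median of this list was 0.13, and its most abundant genes were Sdha (722 and 455 CPM) and Idh2 (390 and 419 CPM).

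Other bHLH-PAS genes are relatives that pair with ARNT or share its fold. Of 11 genes 4 met the minimum, 2 were higher in the Venus-negative and 1 in the Venus-positive library. That is 75%, against 30.1% of all genes. The 4 had means of 10 to 50 CPM, where 35.7% of all genes were past the rule. Ahrr, the repressor of the dioxin receptor, had 222 and 0 counts. It was 67.2-fold higher in the Venus-negative library with the 0 of the Venus-positive library set to 3 counts. The lower limit of its log2 ratio for counting error was 5.76. Ahr, the dioxin receptor and an ARNT partner, was counted 9 and 182 times (log2 ratio -4.48, interval -5.63 to -3.52). The clock gene Arntl was at 27.3 and 9.62 CPM (log2 ratio 1.50, interval 1.16 to 1.86), and its partner Clock, at 5.67 and 15.2 CPM, was not past the rule. Sim1, Sim2 and Npas4 were at 0 in each library.

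Glycolytic genes known as targets of hypoxia-inducible factors were mostly not past the rule. Of 17 that met the minimum 1 was higher in each direction (11.8%, against 30.1% of all genes), and for the 15 others the rule was not met. Most of the 17 had means above 50 CPM. There fewer of all genes were past the rule, 16.5% for means of 50 to 200 CPM and 5.37% above 200 CPM. The list's median was -0.13. The hexokinase gene Hk2 was higher in the Venus-negative library (131 and 40.5 CPM, log2 ratio 1.70, interval 1.53 to 1.86), and the phosphofructokinase gene Pfkp was higher in the Venus-positive library (24.0 and 71.6 CPM, log2 ratio -1.58, interval -1.79 to -1.36). The most abundant, Pkm (1240.0 and 1062 CPM) and Ldha (811 and 1425 CPM), were not past the rule. Gapdh, Pgk1, Pgam1 and Eno1 have processed copies elsewhere in the genome, and reads with more than 1 match were not assigned to genes, so their low counts are uncertain.

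Targets outside glycolysis went both ways. Of 24 that met the minimum 4 were higher in the Venus-negative and 1 in the Venus-positive library, with a median of 0.15. That is 20.8% past the rule, against 30.1% of all genes. Bhlhe40, a transcriptional repressor gene, had 240 and 0 counts, 72.7-fold higher in the Venus-negative library with 0 set to 3 counts. The lower limit of its log2 ratio for counting error was 5.87. Insig2, a sterol sensor gene, had 289 counts and 1 (log2 ratio 8.04, interval 5.55 to 13.34). The histone demethylase gene Kdm3a was at 305 and 108 CPM (log2 ratio 1.50, interval 1.39 to 1.60), and Plod2, a collagen lysyl hydroxylase gene, was at 118 and 51.9 CPM (this one was picked with its values in view). Hmox1, the haem oxygenase gene, which is also abundant in macrophages, was at 33.4 CPM in the Venus-negative and 334 CPM in the Venus-positive library (log2 ratio -3.32, interval -3.48 to -3.16). The cell cycle gene Ccnd1, the most abundant of the list, was at 258 and 261 CPM. A further 12 listed genes did not reach the minimum. Among these, and named with their values in view, Vegfa, the vessel growth factor, had 0 counts in the Venus-negative and 41 in the Venus-positive library, Adm 0 and 70, Car9 7 and 54, and Stc2 47 and 87. Ddit4 had 99 and 71 counts, Rora 101 and 66, Ankrd37 53 and 34, Car12 3 and 0, and Lox 1 and 0. Epo and Ppp1r3c were at 0 in each library.

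Endothelial genes linked to the pathway were past the rule in 4 of 7 cases (57.1%, against 30.1% of all genes that met the minimum). Of the 4, Pdgfb had a mean of 5.87 CPM, and 83.3% of all genes with means under 10 CPM were past the rule. Tek, the TIE2 receptor gene (106 and 325 CPM, log2 ratio -1.61), and Edn1, the endothelin gene (16.0 and 66.7 CPM, log2 ratio -2.06), were higher in the Venus-positive library. Pdgfb was as well, with 0 and 111 counts, 40.7-fold lower in the Venus-negative library with 0 set to 3 counts. The upper limit of its log2 ratio for counting error was -5.03. Angpt2, a ligand of TIE2, was higher in the Venus-negative library (64.5 and 13.4 CPM, log2 ratio 2.27, interval 1.99 to 2.55). Flt1, Kdr and Nos3 were not past the rule (log2 ratios -0.62, -0.38 and -0.73), and Cxcr4, with 33 and 8 counts, did not reach the minimum. The endothelial markers given above were also higher in the Venus-positive library in 7 of 10 genes, and Kdr and Tek belong to each of these lists.

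**Figure D5:**
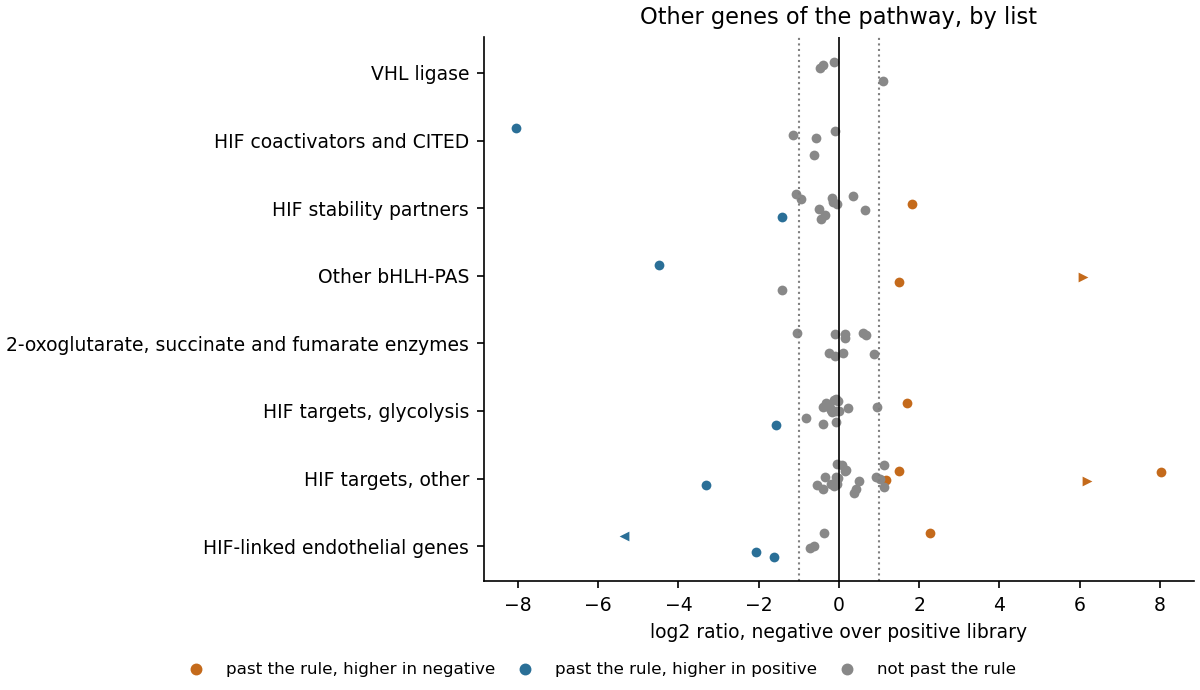
Log2 ratio of negative over positive library for the 83 other pathway genes that met the level minimum, by list. Colours show whether they were past the rule, and dotted lines mark 2-fold. Triangles are genes at 0 counts in 1 library, drawn with the 0 set to 3 counts. Most points lie between the dotted lines, and 9 genes are past the rule on the right and 8 on the left.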

How the data were processed

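RNA of 2 sorted populations was sequenced after SMARTER cDNA amplification, per the labels' protocols. The authors deposited raw whole-number counts for each gene symbol, 1 table a library. TopHat, Cufflinks, HTSeq and mm10 are named per the submitters' processing notes. Their versions, the annotation and the strand setting are not given. The 5 rows for reads assigned to no gene (51.9% and 56.6% of all counts, mostly alignments that are not unique) were left out.

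Counts were scaled with TMM (factors 1.03 and 0.974; edgeR 4.0.16, R 4.3.3). Ratios have Clopper-Pearson intervals given a gene's total, levels have exact Poisson intervals and shares have Clopper-Pearson intervals. Depth was 10135400 and 9715131 counts, so 3 counts amount to 0.288 and 0.317 CPM. The rule of size stands in for a test. Its steps were tried on simulated counts that held counting error only, which cannot show how the rule fares with spread between libraries. Exon lengths and positions come from GENCODE vM21 (22750 symbols matched, 94.5%) and promoters from RefSeq (GRCm38.p6). Protein sequences were not used here.

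The 10 genes were named in full. Of each pathway list, up to 3 genes per direction past the rule with intervals farthest from equal expression and the 2 most abundant were named, and lists of at most 8 genes were given in full. The members and lists were chosen with earlier results of these data known. Alternatives were 3 other scalings (1 with DESeq2 1.42.0 size factors), 3 filters, a 4-fold rule, a 2-fold ratio without interval, a coefficient of variation of 0.4 assumed between libraries, shares per length and a thinned library.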

Additional observations from a re-analysis of the deposited data

How the results depend on the processing

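The direction of the ratio was the same for each of the 10 genes under the 3 other scalings. The filters, the other rules and the assumed spread leave the ratio itself unchanged, so they could not alter its direction. Over the 9 alternatives the side of the rule was the same in 86 of 90 cases. The lower filter and no filter could not change it, since all 10 genes met the stricter minimum. Egln3 was past the rule under every alternative except the filter of 50 CPM and 50 counts, which both Egln3 and Arnt2 fail by construction (0 genes past the rule in each direction, and 5 and 4 pathway genes higher in the Venus-negative and positive library). Arnt2 was also not past the rule of 4-fold (lower bound 1.995, 0 genes in its direction), or with a coefficient of variation of 0.4 assumed between libraries (interval 0.94 to 4.27, 0 genes in its direction). Under each of these, 3 pathway genes were higher in the Venus-negative and 4 in the Venus-positive library. With the assumed spread, the intervals of the 8 genes not past the main rule all included 0. With a filter of 1 CPM and 10 counts, or no filter, 15 pathway genes were higher in the Venus-positive library in place of 8, as more low genes entered. The share of all genes past the rule was 37.2% with that filter and 34.7% with none, against 30.1% in the main setting. The count of all genes past the rule was 744 and 751 at 4-fold (14.4% of 10381) and 663 and 693 with the assumed spread (13.1% of 10381). It was 2297 and 2484 with the lower filter (of 12868) and 2310 and 2503 with none (of 13853). With the higher filter it was 629 and 545 (20.7% of 5659). The median log2 ratio of all genes was 0.075 when scaled by totals.

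Shares depended on the length used. Per exonic length, Egln1 took 17.0% and 12.9% of prolyl hydroxylase signal in the Venus-negative and positive library and Egln2 82.4% in the Venus-negative. Per longest transcript, an alternative chosen after seeing the data, Egln1 took 13.4% and 10.5%, Egln2 86.1% and 76.4%, Hif1a 89.5% and 82.4% of Hif1a and Epas1, and Arnt2 12.8% of beta subunits in the Venus-negative library. For each of these genes the library with the larger share was the same as on counts. No paired analysis was possible because each group has 1 library. Depth limits Egln3 in the Venus-negative library (7 counts) and Arnt2 in the Venus-positive library (26 counts) most.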
